A study of Mus musculus with 10 samples.

Results

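The 10 genes described here carry absorbed fat through the intestinal epithelium: the apolipoproteins Apoa1, Apoa4, Apob and Apoc3, the fatty acid-binding proteins Fabp1 and Fabp2, the lipoprotein-assembly and triglyceride-synthesis genes Mttp and Dgat1, and the surface receptors Cd36 and Scarb1. They were taken by name from the 31053 genes counted in each library, all 10 were detected, and Scarb1 was on the list because it rose in -VE organoids. Organoids are small epithelial structures grown in Matrigel, here from crypts of the proximal small intestine of mice. The ENR medium supplied EGF, Noggin and R-Spondin 1. The medium of Hyper organoids held EGF, R-Spondin 1 conditioned medium, FGF2, LDN193189, GSK-3 Inhibitor XV, Pexmetinib, 500 µM VPA (valproic acid, a histone deacetylase inhibitor) and 2 µM EPZ6438, which blocks the histone methyltransferase EZH2, and -VE organoids were given the Hyper medium lacking VPA and EPZ6438. ENR libraries 1, 2 and 3 were made at passages 2, 7 and 3, -VE libraries 1 and 2 at passages 1 and 6, and Hyper libraries 1, 2 and 3 at passages 1, 6 and 3. The -VE cultures and Hyper cultures 1 and 2 were derived from ENR organoids, whereas ENR 3 and Hyper 3 were started from primary crypts. Libraries with the same replicate number share a code prefix, here called a series, a name the labels do not give. Another library came from colonic crypts of normal mice and 1 from mice given dextran sulfate sodium (DSS), which injures the colon. The labels do not say whether libraries of a group came from separate animals, so p-values measure only the spread between these libraries.

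Enterocytes of the small intestine take up fatty acids and cholesterol, rebuild triglycerides at the endoplasmic reticulum and load them onto apolipoprotein B to form chylomicrons. Microsomal triglyceride transfer protein, encoded by Mttp, performs the loading, and apolipoproteins A-I, A-IV and C-III join the particle before it is secreted to the lymph. Most of these genes are known as markers of mature villus enterocytes, and some are also used by the liver.

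Apoa1, Apoc3 and Apoa4 lie side by side on mouse chromosome 9 (GRCm38), from position 46228580, where Apoa1 starts, to 46243459, where Apoa4 ends, a stretch of 14880 bases with Apoc3 on the opposite strand between the other two. The remaining members are spread over chromosomes 3 (Fabp2, Mttp), 5 (Cd36, Scarb1), 6 (Fabp1), 12 (Apob) and 15 (Dgat1). The bases just before the start are shown for Apoa1 and Apoa4 as neighbours in that cluster, for Fabp2 as the member called in both comparisons of Hyper organoids, and for Apob as the member whose ENR and Hyper libraries overlapped. They are RefSeq promoter windows of build GRCm38.p6, 5′ to 3′, ended before the first base of the RefSeq and GENCODE gene models, and capitals mark matches to the letters named after them.
Apoa1 (chr9:46228380-46228579, + strand): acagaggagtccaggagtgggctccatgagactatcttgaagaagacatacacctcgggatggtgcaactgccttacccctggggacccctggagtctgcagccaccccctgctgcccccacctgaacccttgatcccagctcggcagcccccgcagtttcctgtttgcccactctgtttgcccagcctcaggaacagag
Apoa4 (chr9:46240594-46240695, + strand): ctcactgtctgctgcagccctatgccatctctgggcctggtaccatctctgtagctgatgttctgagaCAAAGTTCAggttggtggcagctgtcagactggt
Fabp2 (chr3:122894822-122895071, + strand): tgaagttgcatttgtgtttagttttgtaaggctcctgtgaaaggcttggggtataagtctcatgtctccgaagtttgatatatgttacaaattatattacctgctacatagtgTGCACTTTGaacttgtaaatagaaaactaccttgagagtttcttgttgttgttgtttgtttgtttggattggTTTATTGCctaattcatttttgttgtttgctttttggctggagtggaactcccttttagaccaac
Apob (chr12:7977427-7977647, + strand): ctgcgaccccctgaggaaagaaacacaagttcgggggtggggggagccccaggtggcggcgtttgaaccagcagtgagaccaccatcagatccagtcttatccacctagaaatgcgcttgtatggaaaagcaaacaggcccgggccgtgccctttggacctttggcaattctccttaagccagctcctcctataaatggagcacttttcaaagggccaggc
The capitals in Apoa4 and the first capitals in Fabp2 match CAAAGTNCA, a core of the recognition sequence of hepatocyte nuclear factor 4, on one strand or the other. The second capitals in Fabp2 match GCAATAAA, a form of the site of the CDX factors, and both searches covered both strands. The same letters occurred in 1.41% and 0.974% of the 32851 RefSeq promoter windows, which run from 250 bases before to 50 bases after a start. A GATA core (TGATAA, in 9.05% of whole windows) and the HNF1 palindrome (in 0.00913%) had no match in the bases printed, and the Apoa1 window held 1 GATA match past the start, in the part not shown. Promoter windows were found for 7 of the 10 members, and a match is a description of letters, not of binding.

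The 8 organoid libraries held 22139 kept cells, 1983 to 4293 each, with a median of 38174 to 50652 unique molecular identifiers (UMIs, each standing for 1 captured RNA molecule) per cell. The 2 colonic libraries held 1132 and 1933 cells with medians of 18375 and 16051 UMIs. No pair of libraries shared more than 5 kept barcodes or more than 0.207% of those of the smaller library. Levels are given as CPM, the UMIs of a gene per 1000000 UMIs, summed over a library or over the cells of 1 class in it. Intervals on counts cover counting error only. Markers of other tissues were scarce in the organoids: a list of 6 leukocyte genes summed to 0.802 to 1.85 CPM, 3 hepatocyte genes to 0.488 to 2.12 CPM and 2 adipocyte genes to at most 0.232 CPM. A list of 3 stroma genes was higher in Hyper libraries, at 0.443 to 0.744 CPM against 0.0337 to 0.0814 CPM in ENR and 0.0471 to 0.0739 CPM in -VE. The list of 6 enterocyte markers summed to 827 to 1107 CPM in ENR, 321 to 324 CPM in -VE and 142 to 311 CPM in Hyper libraries. Scarb1 overlaps Gm42633 on the same strand, and its count could include reads that belong to that partner if the counting did not separate them. Apoa4, Fabp2 and Mttp overlap other annotated genes only on the opposite strand. Their counts could include reads of those partners only if strand was not used in the counting.

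The first comparison asked how the fat-handling genes of Hyper organoids differed from those of conventional ENR organoids. Scarb1 was listed for its difference between -VE and the same ENR libraries, so its values are described in each comparison without a test. Of the other 9 members, 7 differed at an adjusted p under 0.05 and at least 2-fold, and these 7 were lower in Hyper organoids. Over all 16037 genes tested the same rule called 22.9%, with 4.75% lower and 18.2% higher. The median log2 fold change of the 9 members was -2.29, against -0.0073 over all genes. In sums over whole libraries, fewer enterocytes and less RNA per enterocyte cannot be told apart. The media differed in many components, whose effects cannot be told apart either.

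Among the apolipoproteins that coat the particle, Apoa1, the main protein of high-density lipoprotein, stood at 172, 228 and 120 CPM in ENR 1, 2 and 3 and at 3.1, 31.4 and 3.27 CPM in Hyper 1, 2 and 3. All Hyper libraries were below all ENR libraries, and Hyper 2 stood far above the other two. The log2 fold change was -3.90 (SE 0.90, adjusted p = 0.00623). Apoc3, an inhibitor of triglyceride clearance, was 34.3, 53.6 and 36.4 CPM in ENR and 3.44, 6.73 and 0.698 CPM in Hyper libraries. These groups did not overlap either, and the log2 fold change was -3.61 (SE 0.62, adjusted p = 0.00142). Apoa4, which is secreted with chylomicrons in response to fat, was 105, 157 and 72.6 CPM in ENR and 11.3, 47.9 and 1.2 CPM in Hyper libraries. Again no Hyper library reached an ENR library, but the Hyper values spread from 1.2 to 47.9 CPM and the difference missed the threshold (log2 fold change -2.58, SE 0.99, adjusted p = 0.0529). It passed without Hyper 2 (-4.24, adjusted p = 0.00653) and without Hyper 3 (-2.03, adjusted p = 0.0361), and with series as a block (-3.28, adjusted p = 0.0189). The 10 cells richest in Apoa1 held 52.8%, 73.6% and 48.8% of its UMIs in Hyper 1, 2 and 3. For Apoa4 the 10 richest cells held 89.9%, 84.4% and 38.0%, and for Apoc3 87.8%, 79.8% and 30.2%. In ENR libraries such cells held 21.9% to 38.8% of the UMIs of these genes, so the Hyper 1 and 2 levels rest on few cells.

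Apob, the structural protein of chylomicrons, was not called. It was 55.9, 63.4 and 56.7 CPM in ENR and 46.5, 76.9 and 68.8 CPM in Hyper libraries. Hyper 1 lay below and the other two Hyper libraries above every ENR library. The log2 fold change was -0.00071 with an SE of 0.17 (adjusted p = 0.997), and its sign turned under 10 of the alternatives tried. With all barcodes it was -0.63, past the p threshold but under 2-fold. In kept cells the ENR and Hyper libraries overlapped for Apob.

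The fatty acid-binding proteins of the enterocyte cytosol both fell. Fabp1, the liver-type protein, was 979, 1375 and 1251 CPM in ENR and 111, 409 and 283 CPM in Hyper libraries (log2 fold change -2.30, SE 0.41, adjusted p = 0.00167). The 10 cells richest in Fabp1 held 84.7%, 34.4% and 49.2% of its UMIs in Hyper 1, 2 and 3. Such cells held 11.7% to 17.4% in ENR libraries. Fabp2, the intestinal-type protein, was 585, 694 and 644 CPM in ENR and 143, 158 and 172 CPM in Hyper libraries. Its Hyper values lay close together, and its log2 fold change of -2.15 had an SE of 0.11 (adjusted p = 3.4e-06). The assembly genes had smaller fold changes. Mttp was 115, 134 and 117 CPM in ENR and 50.1, 64.1 and 56.7 CPM in Hyper libraries (log2 fold change -1.23, SE 0.10, adjusted p = 3.2e-05). Dgat1, which joins the last fatty acid to a triglyceride, was 108, 125 and 116 CPM in ENR and 43.3, 48.1 and 42.8 CPM in Hyper libraries (log2 fold change -1.51, SE 0.076, adjusted p = 3.4e-06). Both genes separated the groups with little spread inside each.

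The receptors moved in opposite directions. Cd36, a fatty acid translocase, was scarce throughout: 2.04, 2.69 and 0.943 CPM in ENR, or 198, 331 and 84 UMIs, and 0.368, 0.253 and 0.0665 CPM in Hyper libraries, or 51, 36 and 6 UMIs (log2 fold change -3.12, SE 0.63, adjusted p = 0.00314). Its 10 richest cells held 100%, 94.4% and 100% of the UMIs in Hyper 1, 2 and 3, against 19.9% to 38.1% in ENR. Scarb1, a receptor for high-density lipoprotein that takes up cholesterol, was 11.1, 9.94 and 6.72 CPM in ENR and 32.4, 36.1 and 29.0 CPM in Hyper libraries. All 3 Hyper libraries stood above all ENR libraries. The log2 fold change was 1.69 (SE 0.19). The 7 lower calls held without each of the 8 organoid libraries in turn.

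**Figure D1:**
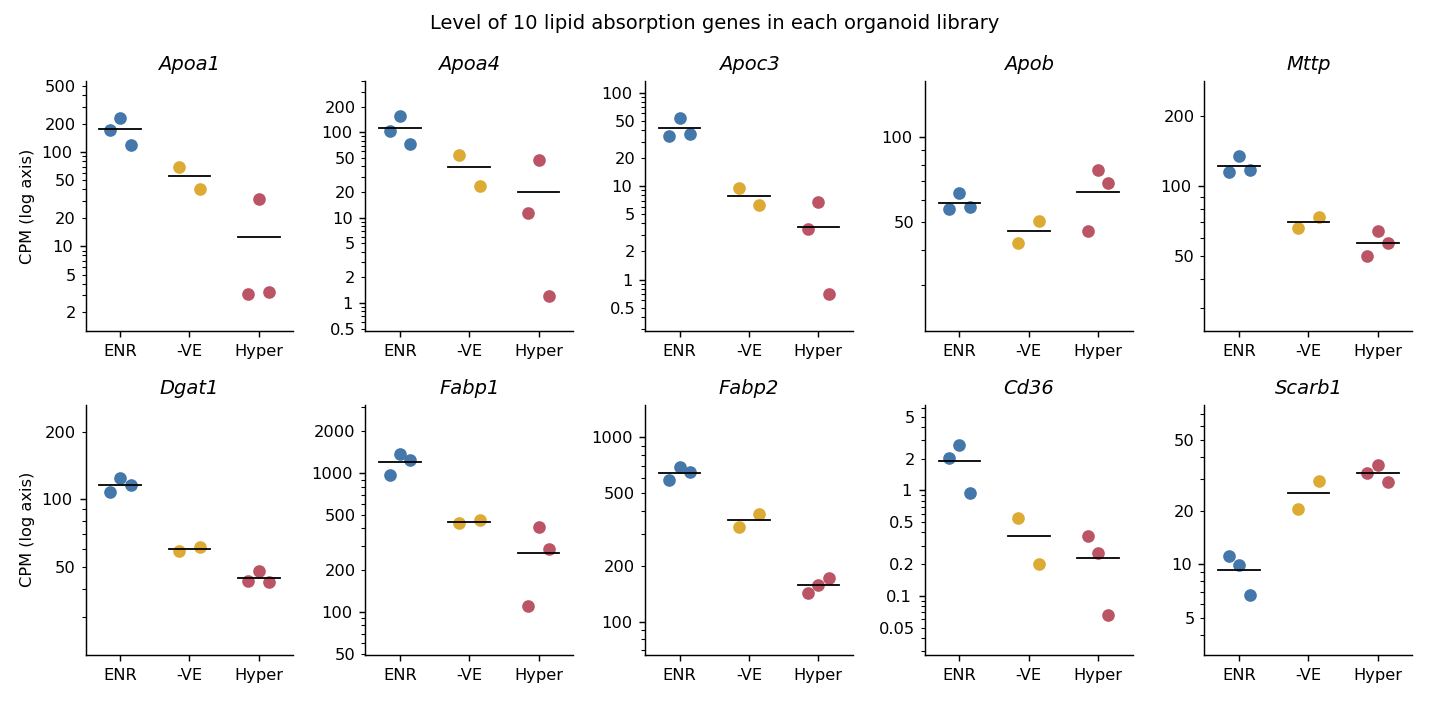
Level of each gene in CPM (log axis) in the 3 ENR, 2 -VE and 3 Hyper libraries; points are libraries and lines are group means. Apoa1 falls from 120 CPM or more in ENR to 31.4 CPM or less in Hyper, Apob stays between 42.4 and 76.9 CPM, and Scarb1 rises from 11.1 CPM or less to 29.0 CPM or more.

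The second comparison, Hyper against -VE, asked what VPA and EPZ6438 together added to the same medium. Only Fabp2 was called: 324 and 385 CPM in the -VE libraries against 143 to 172 CPM in the Hyper libraries, which did not overlap (log2 fold change -1.30, SE 0.11, adjusted p = 0.00011). The rule called 18.6% of all genes in this comparison, 2.51% lower. Dgat1 (58.8 and 61.2 CPM in -VE) and Mttp (66.2 and 73.6 CPM in -VE) were also lower in Hyper organoids past the p threshold but by less than 2-fold, with log2 fold changes of -0.56 (adjusted p = 0.00103) and -0.43 (adjusted p = 0.014).

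Several other members had large but uneven differences in the same direction. Apoa1 was 69.7 and 40.7 CPM in -VE libraries, above all Hyper libraries, with a log2 fold change of -2.26 (SE 0.90, adjusted p = 0.0688). Fabp1, at 441 and 457 CPM in -VE, also stood above every Hyper library, at -0.88 (SE 0.43, adjusted p = 0.125). Apoa4 (54.3 and 23.8 CPM in -VE) and Apoc3 (9.59 and 6.21 CPM in -VE) overlapped with the Hyper libraries because Hyper 2 reached 47.9 and 6.73 CPM. Without Hyper 2, 5 members were called, Apoa1, Apoa4, Apoc3, Fabp1 and Fabp2. With series as a block the count was 3: Apoa1 (-2.55, adjusted p = 0.0495), Fabp1 (-1.14, adjusted p = 0.041) and Fabp2. Scarb1 was 20.5 and 29.5 CPM in -VE libraries, the second above Hyper 3, and its log2 fold change against -VE was 0.24 (SE 0.20). Cd36 at 0.542 and 0.200 CPM in -VE and Apob at 42.4 and 50.5 CPM overlapped with Hyper and were not called. The groups of 5 members did not overlap, against 64.5% of all genes.

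The third comparison, -VE against ENR, shares its ENR libraries with the first and its -VE libraries with the second. Scarb1 was chosen for this difference, so its rise from 6.72 to 11.1 CPM in ENR to 20.5 and 29.5 CPM in -VE (log2 fold change 1.45, SE 0.20) is a description. Of the other 9 members none passed both thresholds under the edgeR test, where 2.55% of all genes did. Of these 9, 6 had an unadjusted p under 0.05, as did 24.0% of all genes, 3 were called by the Wald test of DESeq2 (Apoc3, Fabp1 and Cd36) and 2 with series as a block (Apoc3 and Cd36). With all barcodes 4 of the 9 were called, and 0 to 2 when 1 library was left out. The lower level of Dgat1 (-0.94, SE 0.085, adjusted p = 0.00193), Fabp2 (-0.85, SE 0.12, adjusted p = 0.00811) and Mttp (-0.80, SE 0.12, adjusted p = 0.00882) passed the p threshold at less than 2-fold. Apoc3 had the largest difference, -2.38 (SE 0.68), with an adjusted p of 0.0743. All 9 were lower in both -VE libraries than in every ENR library, as groups of 44.0% of all genes did not overlap, and the median of the 9 was -1.41 against 0.0041 over all genes. Only 2 -VE libraries exist.

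Cell classes are those of the deposited annotation, which was made from the same counts and in which Fabp1 and Apoa1 served as enterocyte markers, so differences between classes are given without a test. Enterocytes made up 9.78% to 13.1% of ENR cells (214, 340 and 292 cells), 6.23% and 5.68% of -VE cells (149 and 244 cells) and 0.249%, 1.65% and 1.06% of Hyper cells (7, 58 and 21 cells). Enterocyte progenitors were 22.2% to 34.5% of ENR cells, 4.39% and 4.29% of -VE cells and 3, 3 and 2 cells in the Hyper libraries. Stem cells were 9.75% to 14.7% of ENR, 24.3% and 28.2% of -VE and 40.0% to 44.1% of Hyper cells. A list of 4 stem markers (Lgr5, Ascl2, Olfm4 and Cd44) did not follow these shares over whole libraries. It summed to 1090 to 1898 CPM in ENR, 1441 to 2032 CPM in -VE and 263 to 894 CPM in Hyper.

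The members fell into distinct patterns by which cells held their RNA. In ENR organoids enterocytes held 92.5% ± 1.1 (SD, n = 3) of the Apoa1 UMIs, 89.9% ± 2.0 of Apoa4, 82.7% ± 1.1 of Apoc3, 86.6% ± 1.8 of Fabp1 and 87.8% ± 3.7 of Cd36. They held 45.3% ± 6.4 of Apob, 45.8% ± 3.9 of Mttp, 40.0% ± 3.9 of Fabp2 and 34.4% ± 4.3 of Dgat1, genes that progenitors and transit amplifying cells also carried. Scarb1 was the exception, with 4.87% ± 0.75 of its UMIs in enterocytes. In Hyper organoids the enterocyte share of Apob was 5.32% ± 3.6 (n = 3) and that of Mttp 9.57% ± 6.6, whereas the few enterocytes held 57.2% ± 26 of Apoa1 and 68.8% ± 14 of Fabp1. The libraries were far apart for Apoa4, at 88.6%, 96.4% and 14.8% in Hyper 1, 2 and 3, and for Apoc3, at 85.7%, 88.7% and 6.35%.

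**Figure D2:**
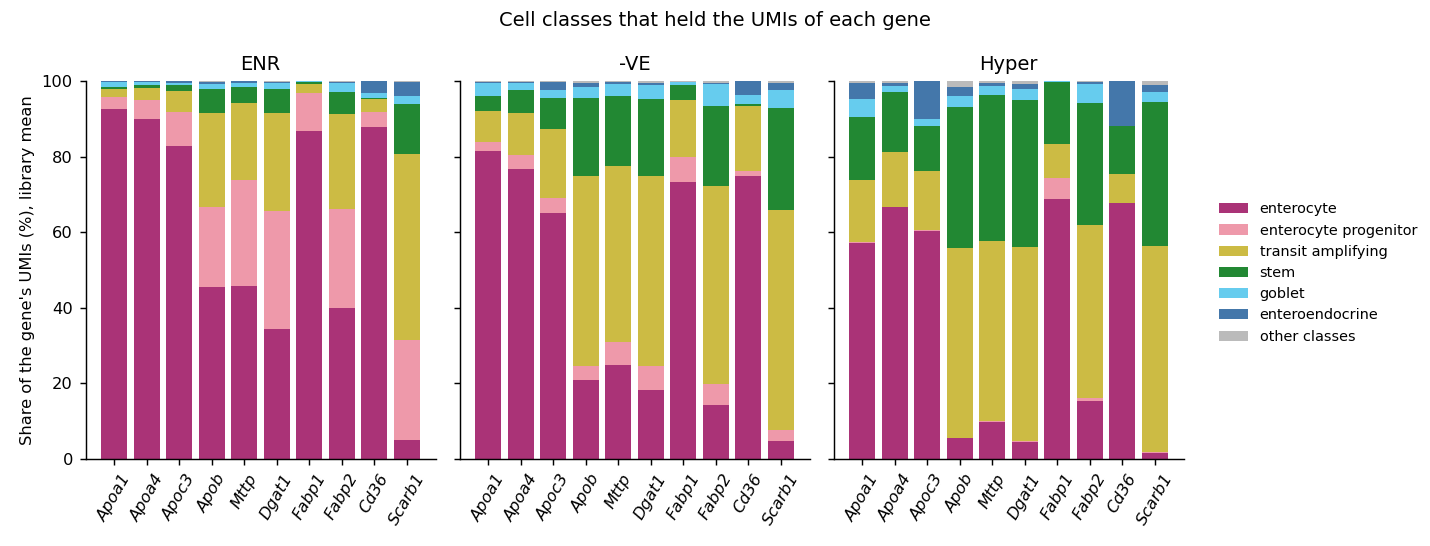
Share of each gene's UMIs (%, mean over the libraries of a group) found in each cell class, for ENR, -VE and Hyper organoids. Enterocytes hold 92.5% of Apoa1 and 4.87% of Scarb1 in ENR organoids, and 5.32% of Apob in Hyper organoids.

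The fit was repeated on the cells outside the enterocyte and enterocyte progenitor classes, an alternative chosen after the data were seen. Leaving aside Scarb1 and Cd36, 4 of 8 members were called against ENR, all lower, where 20.4% of 15759 genes were called in either direction. Apoa1 outside these classes was 12.8, 15.6 and 8.77 CPM in ENR and 1.62, 4.32 and 2.06 CPM in Hyper libraries (log2 fold change -2.32, SE 0.36, adjusted p = 0.000855). Apoa4 was 8.39, 14.0 and 5.96 CPM in ENR and 1.29, 1.73 and 1.03 CPM in Hyper (-2.91, SE 0.32, adjusted p = 0.000135), and Apoc3 changed by -3.27 (SE 0.25, adjusted p = 2.3e-05). Neither gene overlapped between the groups.

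Fabp2 remained lower in these cells, with 343, 366 and 375 CPM in ENR and 133, 108 and 160 CPM in Hyper (-1.55, SE 0.15, adjusted p = 7.1e-05). Cd36 had 24, 25 and 4 UMIs in ENR and 4, 2 and 5 UMIs in Hyper libraries; it passed the filter on low counts through ENR libraries alone, so these values are a description. Scarb1 was 12.4, 11.4 and 7.88 CPM in ENR and 32.4, 35.9 and 28.8 CPM in Hyper (1.5, SE 0.17), again without overlap. In contrast, Mttp (48.4 to 55.4 CPM in ENR, 48.0 to 54.0 CPM in Hyper) had a log2 fold change of -0.15 (SE 0.084, adjusted p = 0.167). Fabp1 (52.1 to 74.3 CPM in ENR, 22.9 to 120 CPM in Hyper) had one of -0.092 (SE 0.56, adjusted p = 0.904), and neither was called. After thinning to equal depth Fabp1 was found in 26.9% to 32.5% of ENR and 3.81% to 10.9% of Hyper transit amplifying cells. Its sums in that class were 54.0 to 82.6 CPM in ENR and 18.4 to 56.8 CPM in Hyper. In stem cells the shares were 18.7% to 24.1% in ENR and 5.73% to 14.7% in Hyper. The stem sums were 29.3 to 42.3 CPM in ENR and 33.4 to 223 CPM in Hyper, so the Hyper sum was held by a smaller share of cells. Outside the enterocyte classes Apob was 33.0, 31.8 and 33.2 CPM in ENR and 45.8, 71.2 and 65.9 CPM in Hyper, without overlap. The difference was past the p threshold but under 2-fold (0.79, SE 0.16, adjusted p = 0.00374). The same held for Dgat1 in the other direction (-0.73, SE 0.053, adjusted p = 1.9e-05).

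Against -VE, 4 of 9 members other than Scarb1 were called lower in these cells, where 18.2% of genes were called in either direction. They were Apoa4 (-2.47), Apoc3 (-2.14), Apoa1 (-1.86) and Fabp2 (-1.36), with adjusted p from 0.00034 to 0.00442. In -VE against ENR, again leaving aside Scarb1 and Cd36, none of 8 members was called by edgeR, where 0.958% of genes were. Of the 8, 2 had an unadjusted p under 0.05, as did 20.7% of genes, and Dgat1 (-0.39, adjusted p = 0.02) also passed the adjusted threshold. Scarb1 was 21.4 and 29.1 CPM in -VE. After thinning to equal depth, Apoa1 and Apoa4 were found in no larger a share of ENR stem cells than the range over ENR Paneth cells, and the part of free RNA in their levels outside the enterocyte classes was not tested.

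**Figure D3:**
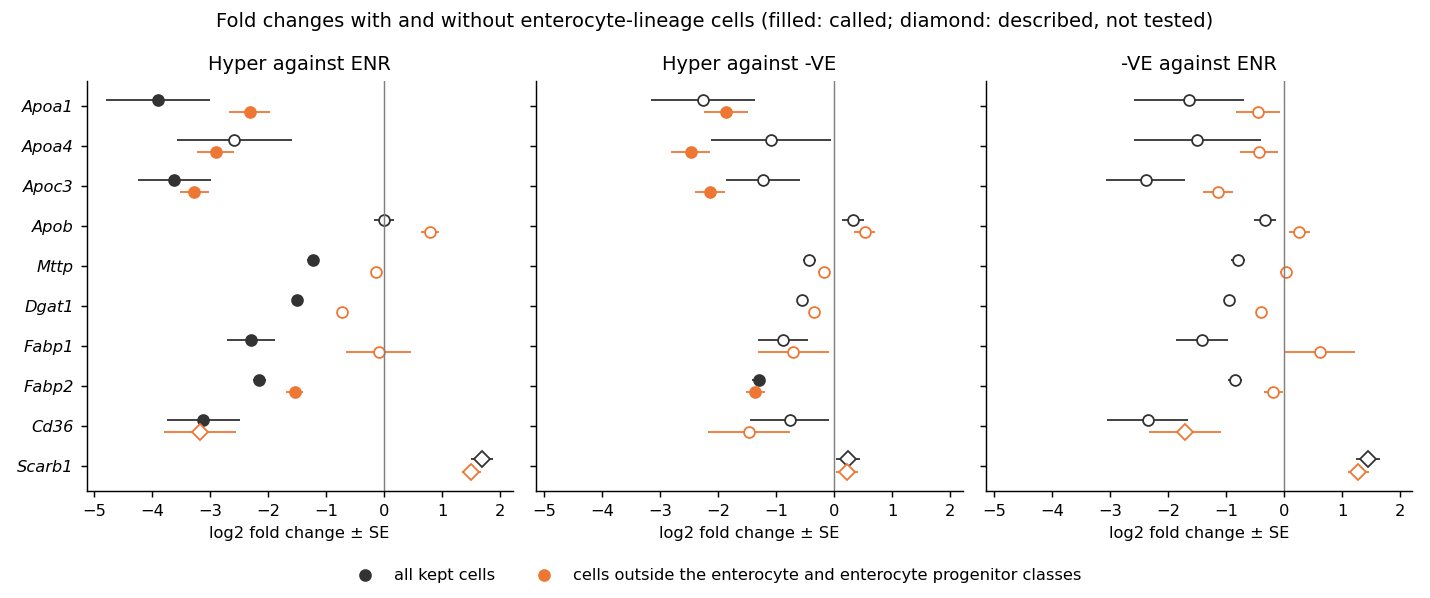
Log2 fold change ± SE of each gene in the 3 comparisons, over all kept cells (dark) and over cells outside the enterocyte and enterocyte progenitor classes (orange); filled points were called and diamonds are described without a test. Apoa1 moves from -3.90 to -2.32 and Fabp1 from -2.30 to -0.092 in Hyper against ENR, while Scarb1 stays at 1.69 and 1.5. The values are of sums, and after thinning Fabp1 was found in 5.73% to 14.7% of Hyper against 18.7% to 24.1% of ENR stem cells.

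Within single classes the same genes were tested on sums over the cells of that class. In the stem class of Hyper against ENR, 4 of 8 members other than Scarb1 were called lower, where 2.80% of genes were: Apoc3 (-3.50, SE 0.24), Apoa4 (-2.98, SE 0.33), Apoa1 (-1.97, SE 0.37) and Fabp2 (-1.46, SE 0.15). Scarb1 in stem cells had a log2 fold change of 1.37 (SE 0.19). In transit amplifying cells the same 4 members were called lower, with a background of 3.78%, and Scarb1 was at 1.54 (SE 0.18). In goblet cells, which secrete mucus, Fabp1 (-3.33, SE 0.34), Apoa1 and Fabp2 were called lower (background 2.64%). Apob was called higher at 1.15 (SE 0.17, background 10.7%), while Scarb1 was at 1.72 (SE 0.24). Apoa4 and Apoc3 were lower too, at 0.845 to 1.57 CPM and 0.157 to 0.634 CPM in Hyper goblet cells. Both passed the filter on low counts through ENR and -VE libraries, so they are given as a description. Apob in goblet cells was 20.5, 18.0 and 14.0 CPM in ENR and 34.4, 46.4 and 44.8 CPM in Hyper, without overlap. In enteroendocrine cells Fabp2 (-1.81) was called lower (background 1.44%) and Apob (1.17, SE 0.19, adjusted p = 0.00272) higher (background 5.96%). Fabp1 (-3.82) and Apoa4 (-2.47) passed the low-count filter through ENR and -VE libraries and are given as a description. Fabp1 was 1.06 to 6.96 CPM in Hyper enteroendocrine cells. Values in this class rest on few UMIs, Apoa4 on 8, 30 and 15 in ENR and 4, 10 and 2 in Hyper libraries. Cd36, with 8, 14 and 1 UMIs in ENR and 0, 1 and 2 in Hyper, passed the low-count filter through ENR alone and is given as a description.

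Scarb1 in enteroendocrine cells was 21.7, 19.7 and 42.1 CPM in the ENR libraries and 26.0 to 39.1 CPM in Hyper (0.35, SE 0.30). In stem cells it was 7.60 to 14.7 CPM in ENR, 23.8 and 32.9 CPM in -VE and 28.7 to 36.5 CPM in Hyper. Whether the Scarb1 difference itself varied between classes was not tested.

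Hyper enterocytes could be summed in libraries 2 and 3 only, with 58 and 21 cells, and these libraries differed widely. Apoa1 in this class was 1581 CPM in Hyper 2 and 114 CPM in Hyper 3, and Apoa4 was 2694 and 16.4 CPM. Apoc3 was 348 and 4.11 CPM in the same libraries. Against the ENR enterocytes (Apoa1 1072 to 2036 CPM, Apoa4 621 to 1325 CPM) neither gene was called.

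Fabp1 in enterocytes was 20300 and 15211 CPM in Hyper 2 and 3, above the 10370 to 11214 CPM of ENR (0.67, SE 0.13, adjusted p = 0.00543, under 2-fold) and above the 6175 and 7072 CPM of -VE (1.44, SE 0.15, adjusted p = 0.000553). Fabp1 and Apoa1 were markers used to annotate this class from the same counts. Their levels within it were therefore not independent of which cells were placed in it, and the size of that effect was not tested. Scarb1 was 2.84 to 6.46 CPM in ENR and 50.8 and 55.5 CPM in Hyper enterocytes (3.40, SE 0.47). Dgat1 was called lower (-1.16, SE 0.13, adjusted p = 0.000344; background 3.08%). Fabp2 was called higher against -VE enterocytes (1.09, SE 0.30, adjusted p = 0.039), as 5.12% of genes were. It was called lower in -VE than in ENR enterocytes (-1.48, SE 0.28, adjusted p = 0.0129; background 1.90%). Leaving out 1 library at a time moved the enterocyte counts of members called, without Scarb1, from 1 to between 1 and 5 against ENR (5 without Hyper 2), and from 2 to between 1 and 5 against -VE (5 without Hyper 3). The count of 1 in -VE against ENR went to between 0 and 3, and was 0 without -VE 2. Without Hyper 2 or Hyper 3 a single Hyper library is left, which is then assumed to vary like the libraries of the other groups.

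Hyper against -VE within classes gave 4 lower members in stem cells (background 1.76%), 5 in transit amplifying cells (background 2.32%), 4 in goblet cells (background 1.15%) and 1 in enteroendocrine cells (background 0.489%). Apoa1, Apoa4 and Apoc3 were in the counts of the first 3 of these classes. In goblet cells Apoa4 and Apoc3 passed the filter on low counts through ENR and -VE libraries, so their part of that count is a description. In -VE against ENR, where Scarb1 was left out of the count, 1 member each was called lower in transit amplifying cells (Apoc3, -1.20, adjusted p = 0.0474, background 0.337%) and in goblet cells (Apoa1, -1.19, adjusted p = 0.00702, background 0.606%). After thinning, Apoa1 was found in 19.1% and 22.7% of -VE and 14.3% to 20.6% of ENR goblet cells, so the lower sum did not go with a lower share of cells. None was called in stem and enteroendocrine cells, where 0.503% and 0.190% of all genes were called in either direction. An unadjusted p under 0.05 was found there for Apoc3 and Dgat1 in stem cells, where 17.7% of all genes had one, and for Fabp1 in enteroendocrine cells, where 12.8% had one, and the series block raised the stem count to 1. The transit amplifying call was lost in 6 of the fits that left out 1 library, and the goblet call without -VE 2.

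**Figure D4:**
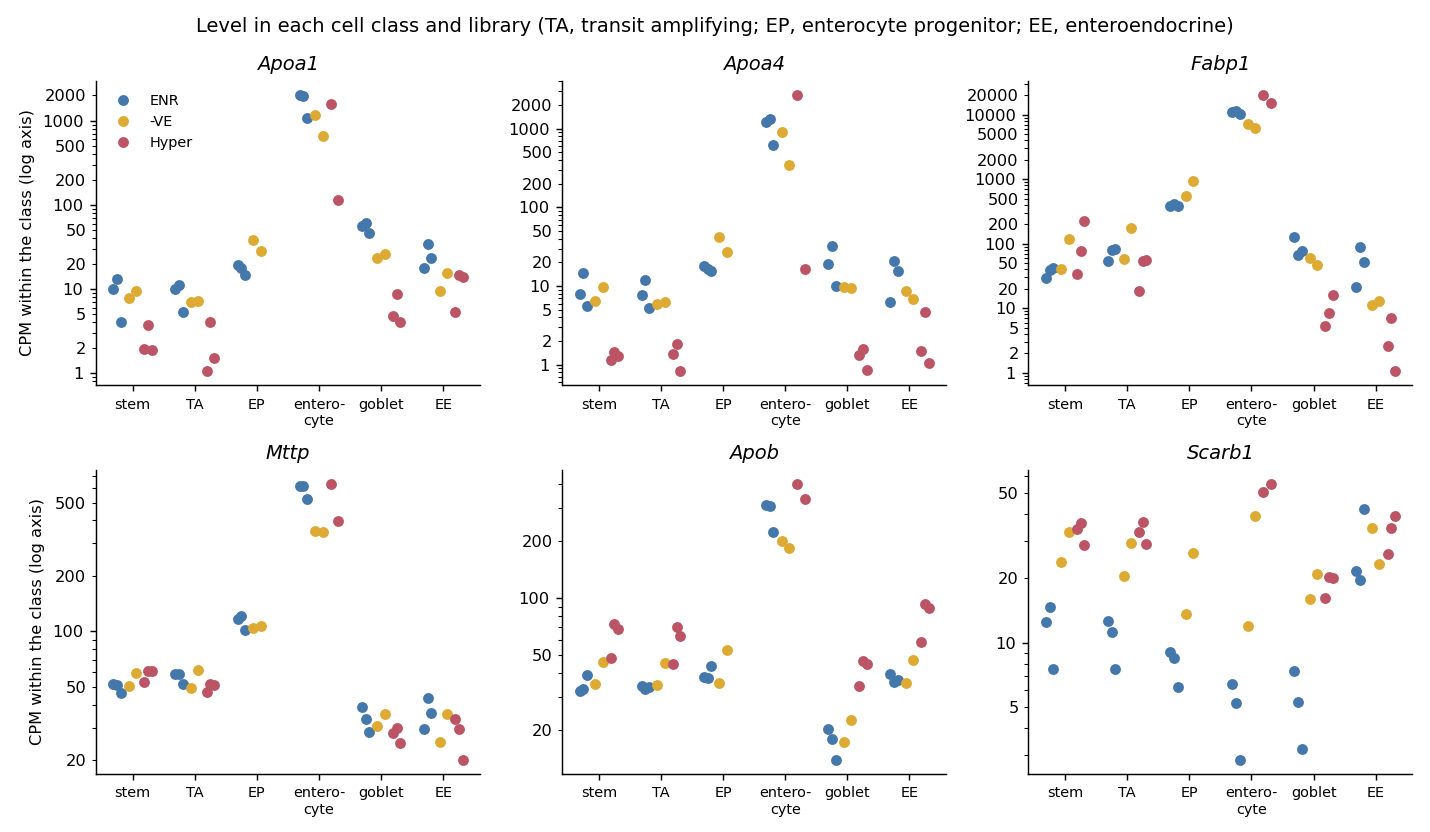
CPM within a class (log axis) for 6 members, by class and library; points are libraries with at least 20 cells of the class. Scarb1 in stem cells is 7.60 to 14.7 CPM in ENR and 28.7 to 36.5 CPM in Hyper, and Apoa4 in Hyper enterocytes is 2694 and 16.4 CPM.

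Droplet libraries hold free RNA, so shares of cells with a UMI were compared after thinning each cell to 10000 UMIs. Scarb1 was then found in 8.33% to 13.6% of ENR stem cells, 21.2% and 25.6% of -VE stem cells and 25.1% to 28.8% of Hyper stem cells. In Paneth cells, which would share the same free RNA, it was found in 0 of 25, 0 of 33 and 0 of 33 ENR cells, which allow shares of up to 12.0%, 9.09% and 9.09%. Apob was found in 26.9% to 31.1% of ENR and 36.3% to 53.4% of Hyper stem cells, against 0% to 15.2% of ENR Paneth cells. Fabp1 was found in 18.7% to 24.1% of ENR stem cells and 15.2% to 20.0% of ENR Paneth cells, so its share in ENR stem cells stood close to the Paneth share, and it was found in 5.73% to 14.7% of Hyper stem cells. Apoa1 was found in 3.95% to 11.7% of ENR stem cells against 9.09% to 20.0% of ENR Paneth cells, and Apoa4 in 6.33% to 9.84% against 3.03% to 21.2%, so neither stood above the Paneth range. Paneth cells were shallower, with median depths of 12989 to 22273 UMIs in ENR libraries against 31294 to 40398 in stem cells, and how free RNA scales with depth was not tested. Apoc3 was found in 4.39% to 6.35% of ENR stem cells and 0% to 4.00% of ENR Paneth cells. Fabp2 was found in 92.1% to 94.3% of ENR stem cells, above the 54.5% to 81.8% of ENR Paneth cells. The ratio of Fabp1 to Apoa1 UMIs, which one pool of free RNA would hold equal over the classes of a library, was 5.32, 5.69 and 9.67 in enterocytes of ENR 1, 2 and 3, 20.3, 23.3 and 27 in enterocyte progenitors, 2.95, 2.98 and 10.4 in stem cells and 2.28, 1.09 and 1.67 in goblet cells. In ENR 3 the stem and enterocyte ratios lay close together, as did those of transit amplifying cells (5.33) and enterocytes in ENR 1. In Hyper 1, 2 and 3 the ratio was 47.8 (7 cells), 12.8 and 133 in enterocytes and 17.2, 20.95 and 117 in stem cells. It was 17.5, 13.1 and 38.0 in transit amplifying and 1.1, 0.982 and 3.95 in goblet cells of these libraries. In -VE 1 and 2 it was 6.1 and 9.29 in enterocytes, 5.3 and 12.3 in stem, 8.23 and 24.3 in transit amplifying and 2.56 and 1.845 in goblet cells. How much of the low levels outside enterocytes was free RNA was not tested.

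Over 50 sums of a class and an organoid library, the genes most like a member were ranked by Pearson r of log2(CPM + 1) among 8016 genes; sums of 1 library share its cells' preparation and depth. Apoa1 was closest to Apoa4 (r = 0.957), then Cyp3a11 and Cyp2b10 (both 0.926), Spink1 (0.912) and Apoc3 (0.906). Fabp1 was closest to Alpi, intestinal alkaline phosphatase of the brush border (r = 0.939), then Ugt2b5 (0.911), Gstm3 (0.910), Cyp2c66 (0.908) and Cyp3a25 (0.898). Scarb1 was closest to Slc25a4, a mitochondrial ADP/ATP carrier (r = 0.881), then Ccnd3 (0.871), Bok (0.870), Tnfrsf12a (0.864) and the glucose transporter gene Slc2a1 (0.862). Between members, Mttp and Dgat1 had r = 0.954, Apob and Mttp 0.797, and Scarb1 and Apoa1 -0.248.

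A wider list of 59 genes of fat absorption was counted in the same fits, and 58 passed the filter, Apoa5 being at 0 in every organoid library. Pdzk1, with 29, 39 and 7 UMIs in ENR and 4, 5 and 0 in Hyper libraries, passed the filter on low counts only with the help of ENR libraries and is left out of the counts against ENR. In Hyper against ENR 10 of the other 57 were called lower and 1 higher, against 4.75% and 18.2% of all genes, and their median was -0.42. On the adjusted p alone, with no fold threshold, 32 were lower and 5 higher, where 27.3% and 29.5% of all genes were. The lower ones were 8 of 8 uptake genes, 5 of 9 synthesis genes, 2 of 7 lipid droplet genes, 6 of 8 assembly genes, 1 of 7 further apolipoproteins and 10 of 14 regulators, and the higher ones were 2 synthesis genes, 2 lipid droplet genes and 1 regulator. Among uptake genes 2 of 8 were called lower, that is past 2-fold as well: Npc1l1, the intestinal cholesterol transporter, from 21.7 to 28 CPM in ENR to 6.19 to 8.76 CPM in Hyper (-1.88, SE 0.13, adjusted p = 1.5e-05), and the ileal bile acid-binding gene Fabp6 (-4.03, SE 0.44), which was at most 2.02 CPM in any organoid library. In triglyceride and ester synthesis 1 of 9 was called lower, Soat2, which esterifies cholesterol (-1.01, SE 0.14), and in lipid droplets 1 of 7, Cideb (-1.28, SE 0.19). In chylomicron assembly and export 2 of 8 were called lower: Prap1, from 468 to 674 CPM in ENR to 64.8 to 89.6 CPM in Hyper (-3.00, SE 0.18, adjusted p = 6.1e-06), and Tm6sf2 (-1.36, SE 0.17).

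None of the 7 genes tested among further apolipoproteins and colipase was called in this comparison, 1 having an unadjusted p under 0.05 against 61.7% of all genes, and no sterol efflux gene counted was called. Among 14 regulators 4 were called lower and 1 higher. Ppara, a nuclear receptor that turns on fatty acid use, was 11.5 to 11.8 CPM in ENR and 3.14 to 3.92 CPM in Hyper (-1.82, SE 0.10, adjusted p = 4.9e-06). Creb3l3, a transcription factor of lipoprotein genes, fell by 2.10 on the log2 scale (SE 0.35) over all cells, yet its value outside the enterocyte classes was 0.73. Ppargc1a, a coactivator of mitochondrial genes, rose from 1.48 to 2.14 CPM in ENR to 10.4 to 15.4 CPM in Hyper (2.76, SE 0.20, adjusted p = 1.7e-05).

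Against -VE 5 of the 58 were called lower, where 2.51% of all genes were, Fabp6, Npc1l1 (-1.32, SE 0.14), Soat2 (-1.0, SE 0.15), Prap1 (-2.00, SE 0.18) and Ppara (-1.12, SE 0.11). Another 2 were called higher, against 16.1% of all genes, Ppargc1a (2.46, SE 0.23) and the sterol exporter gene Abcg1, which did not exceed 0.462 CPM in the organoid libraries. In -VE against ENR, where 2.55% of all genes were called in either direction, 4 were called lower: Mogat2, which makes diglycerides from absorbed monoglycerides (-1.12, SE 0.15), Cideb (-1.13, SE 0.21), and the nuclear receptor genes Hnf4g (-1.09, SE 0.22) and Nr1h4 (-1.06, SE 0.13). None of these 4 was called outside the enterocyte and enterocyte progenitor classes, and the count was 0 without -VE 2.

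In the colon, with 1 library a group, no test was possible. Fabp2 was 1536 CPM (95% Poisson interval 1519 to 1553) in the normal and 586 CPM (578 to 595) in the DSS library, a log2 difference of -1.39 with 1 CPM added. It was the only member past 2-fold, as were 5.08% of 12440 genes, 1.53% of them lower. Apob was 14.8 CPM (13.2 to 16.6) in the normal and 28.2 CPM (26.4 to 30.1) in the DSS library, a log2 difference of 0.89. Dgat1 was 37.9 CPM in both, and Scarb1 was 6.63 and 6.48 CPM with overlapping intervals. Apoa1, Apoa4, Apoc3, Fabp1, Cd36 and Mttp were at or below 2.01 CPM in both colonic libraries.

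The colonic libraries differed in the clusters that the deposited annotation numbers. Cluster 3 held 274 normal cells and 1 DSS cell, and 46.6% of the Fabp2 UMIs of the normal library. In cluster 17, whose 57 cells were all from DSS, Fabp2 was 3656 CPM (3388 to 3940). Other clusters with few Ptprc-positive cells and at least 20 cells in DSS alone had 93.0 to 845 CPM. Those with at least 20 cells in the normal library alone had 264 to 3987 CPM. In the clusters with at least 20 cells in both libraries and few Ptprc-positive cells, Fabp2 was lower in the DSS cells of all 5. It was 1548 against 1000 CPM in cluster 1, 791 against 523 in cluster 2, 329 against 159 in cluster 5, 2460 against 1914 in cluster 6 and 912 against 177 in cluster 13, with intervals that did not overlap. In clusters 0 and 11, where most cells had a UMI of the leukocyte gene Ptprc, it was 46.5 and 41.5 CPM in normal and 50.2 and 75.6 CPM in DSS cells. Apob was higher in DSS cells of cluster 1 (1.65 against 25.9 CPM) and cluster 6 (26.9 against 65.1 CPM). Most cells had a Ptprc UMI in 6 clusters, of which cluster 18 also held the stromal collagen gene Col3a1 at 3160 CPM. Without these 6 the whole-library log2 differences were -1.36 for Fabp2 and 0.90 for Apob.

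**Figure D5:**
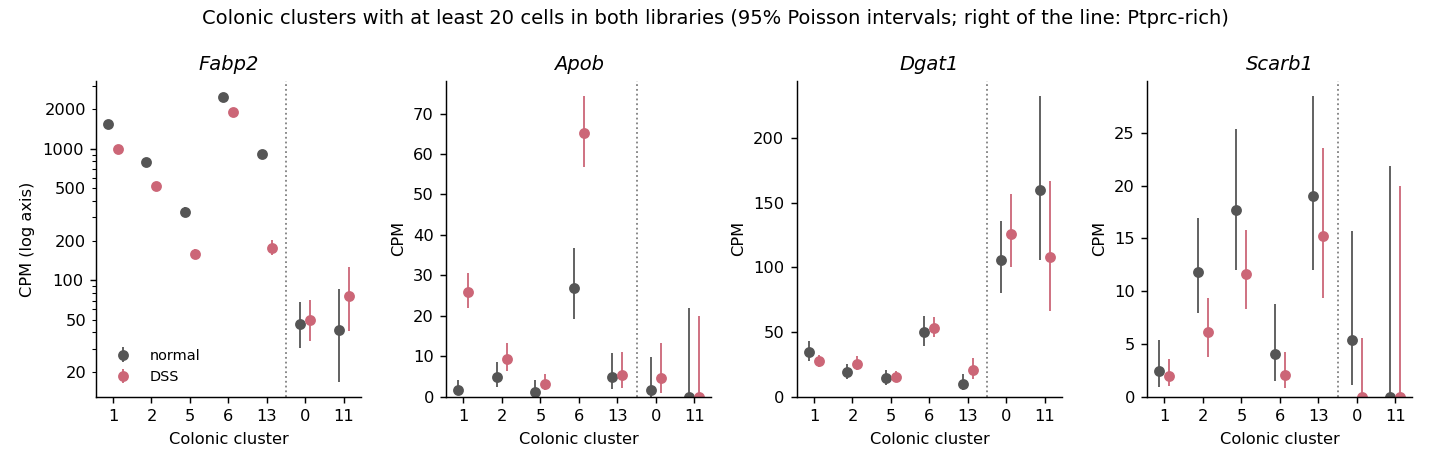
CPM of Fabp2 (log axis), Apob, Dgat1 and Scarb1 in the normal and DSS libraries for the 7 colonic clusters with at least 20 cells in both, with 95% Poisson intervals; clusters right of the dotted line are rich in Ptprc. Fabp2 is lower in DSS in the 5 clusters on the left, by the most in cluster 13 (912 against 177 CPM), and Apob is higher in clusters 1 and 6.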

How the data were processed

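Single-cell 3′ libraries were made on the 10x Genomics platform and counted by the authors with Cell Ranger 3.0.0 per the labels (the matrix headers name 3.1.0) against GRCm38, and kept cells were merged and annotated by the authors in Seurat 3.1.4. The deposited files hold UMI counts per gene and cell, not normalized, with a cell class for each of the 25204 kept cells. The merged counts were checked against the library matrices over 237750 gene and library sums, of which 0 differed. The methods state gene and mitochondrial filters, but kept cells had as few as 501 genes and at most 20.0% mitochondrial UMIs. How doublets were treated is not given in the sources used here, and no doublet caller was run. The class abbreviated TC, at most 7 cells in an organoid library, was not used.

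Counts were summed per gene and library, and per class where a library had at least 20 cells of it (Hyper 1 enterocytes were left out). Sums were tested with edgeR 4.0.16 (R 4.3.3): TMM scaling (factors 0.940 to 1.06), filterByExpr, 1 mean per group and the quasi-likelihood F test, in 1 fit of the 8 organoid libraries. Calls needed a change of 2-fold or more and p under 0.05 after Benjamini-Hochberg adjustment across the genes tested. The script was tested on simulated data. Colonic libraries were compared as CPM with exact Poisson intervals of 95% and a pseudocount of 1 CPM.

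The organoid libraries carry code prefixes (2, 6 and C), here read as series, which the labels do not explain. Prefixes 2 and 6 went with passages 1 to 2 and 6 to 7, so series and passage cannot be told apart. Deviations from group means over 16037 genes correlated at 0.192, 0.170 and 0.436 between ENR and Hyper libraries of 1 series, at 0.162 and 0.0617 between ENR and -VE, and at 0.139 and 0.115 between -VE and Hyper. A fit with the series as a replicate block was therefore run as an alternative. Other alternatives were DESeq2 1.42.0 size factors and Wald test, no filter, a filter of 10 CPM in 2 libraries, all barcodes, leaving out the 5% of cells with the most UMIs, and leaving out each library.

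All 10 members are described. Of other pathway genes, at most the 3 called genes with the largest fold change per functional group and comparison are named, and likeness names the 5 highest r. The members, gene lists and tests were chosen with earlier results of these data known.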

Additional observations from a re-analysis of the deposited data

Results flagged for a closer look

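Some members differed in opposite directions between cell classes under the same contrast, with no overlap between the groups in either class. The share of all genes without such overlap inside a class was not counted. Over whole libraries that share was 64.5% in Hyper against -VE and 44.0% in -VE against ENR. Whether the classes differed was not tested, and the classes were annotated from the same counts. In Hyper against ENR the log2 fold change of Fabp1 was 0.67 in enterocytes, on 2 Hyper libraries with 58 and 21 such cells, but -3.33 in goblet and -3.82 in enteroendocrine cells. Fabp1 in enteroendocrine cells passed the filter on low counts through ENR and -VE libraries, at 1.06 to 6.96 CPM in Hyper. Its values in that class are a description in both comparisons of Hyper organoids. In Hyper against -VE Fabp1 was at 1.44 in enterocytes, -1.56 in transit amplifying, -2.53 in goblet and -1.76 in enteroendocrine cells. In the same contrast Fabp2 was at 1.09 in enterocytes and at -1.35 in stem, -1.35 in transit amplifying, -0.96 in goblet and -1.69 in enteroendocrine cells. Mttp was at 0.59 in enterocytes and -0.32 in goblet cells, neither past the threshold. In -VE against ENR Apob was at -0.59 in enterocytes and 0.26 in transit amplifying cells. The Hyper and -VE comparisons share libraries, so these values are not independent of one another. Groups of 2 or 3 libraries were too small to look for single outlying libraries.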

How the results depend on the processing

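Scarb1 is left out of the counts of members. Counts in goblet and enteroendocrine cells hold members that passed the filter on low counts without the Hyper libraries. In Hyper against ENR 7 members were called in the fit reported and 4 outside the enterocyte classes, where Cd36 is left out too; leaving out 1 library gave 7 to 8. Of 1569 values of single genes, 1427 kept their direction and their side of the threshold or moved by less than the spread, 52 gained and 68 lost the threshold, 6 moved and 16 changed sign. Of 310 counts, 61 moved by over 1.5 times.

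The stricter filter of 10 CPM gave 800 in place of 3675 calls over all genes in Hyper against ENR and 528 in place of 2985 in Hyper against -VE. It gave 166 in place of 409 in -VE against ENR, and 3 in place of 7 pathway genes in Hyper against -VE. These counts are over unlike sets of genes. Members called in Hyper against -VE numbered 1, but 2 with no filter, 3 with the replicate block, 4 with all barcodes, 4 outside the enterocyte and enterocyte progenitor classes and 1 to 5 when 1 library was left out. In -VE against ENR they numbered 0, but 1 with no filter, 3 with the DESeq2 Wald test, 2 with the replicate block, 4 with all barcodes and 0 to 2 when 1 library was left out. In that contrast pathway genes called went from 4 to 0 outside the enterocyte classes and to between 0 and 5 without 1 library (0 without -VE 2, 1 without ENR 2). Calls over all genes there went to 669 with all barcodes, to 151 outside those classes and to between 96 and 519 without 1 library (96 without -VE 2). The cause was not tested.

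Within classes, no filter gave 1 member in stem cells and 1 in enteroendocrine cells of -VE against ENR in place of 0, 3 and 4 in enterocytes of Hyper against ENR and of -VE against ENR (from 1 each), 3 in goblet cells of -VE against ENR (from 1) and 3 in enteroendocrine cells of Hyper against -VE (from 1). In -VE against ENR the block gave 1 in stem cells, 3 in enterocytes and 2 in goblet cells, and changed no other class count by over 1.5 times. Without 1 library the ranges were 0 to 1 (stem, -VE against ENR), 3 to 5 (transit amplifying, Hyper against -VE), 0 to 1 (transit amplifying, -VE against ENR), 1 to 5, 1 to 5 and 0 to 3 (enterocytes, the 3 contrasts in order), 0 to 2 (goblet, -VE against ENR), and 3 to 4 and 1 to 2 (enteroendocrine, Hyper against ENR and against -VE). In the colon 2 members were past 2-fold with all barcodes, in place of 1.

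Of the 16 sign changes 10 were of Apob in Hyper against ENR, a value near 0. That value (-0.00071) was 0.018 with DESeq2 size factors, 0.0089 with no filter, 0.12 at 10 CPM, 0.018 with the Wald test, 0.79 outside the enterocyte classes and -0.15 to 0.19 without 1 library; with all barcodes it was -0.63 (adjusted p = 0.00933). Cd36 in Hyper against -VE was -1.32 to 0.12 without 1 library. Outside the enterocyte classes Creb3l3 in Hyper against ENR was 0.73, and in -VE against ENR Apob was 0.27, Fabp1 0.61, Mttp 0.032 and Mogat2 0.035. Depth limits Cd36, at 6 to 331 UMIs in an organoid library.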
